A study of Mus musculus with 2 samples.

Results

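Within the TripleTg prostate tumour, 737 of 4917 luminal-gated cells (14.99%, 14.0 to 16.0) carried few or no transcripts of 6 target genes of the Wnt/β-catenin pathway, and these are called low-Wnt cells. They were chosen by measured values. A cell entered the luminal gate with at least 10000 unique molecular identifiers (UMIs, each marking 1 captured RNA molecule), at least 1 UMI of Epcam, 0 UMIs of the leukocyte gene Ptprc, less than 20 UMIs of Krt5, Krt14 and Krt15 together and less than 500 UMIs of Svs2, Svs4 and Svs5 together per 10000 UMIs. A gated cell was low-Wnt when Axin2, Nkd1, Notum, Lef1, Apcdd1 and Lgr5 summed to less than 0.5 per 10000 UMIs, and the other 4180 gated cells are called high-Wnt cells. Of 9492 TripleTg cells, 6792 reached the depth, 6602 of these held Epcam, 6043 of these lacked Ptprc, 5381 passed the basal gate and 4917 passed the seminal vesicle gate. The whole series held 21564 cells.

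The study profiled prostate tissue of 2 mouse genotypes by single-cell RNA-seq, 1 library each, after dissociation with collagenase and TrypLE and with 10x Genomics 3′ v3 chemistry. Both genotypes expressed human HGF throughout the body (hHGFtg) and held a human MET transgene at the H11 locus (hMETtg), which Cre recombinase from the PB-Cre4 transgene switches on. TripleTg mice had in addition the Ctnnb1 L(Ex3)/+ allele, whose exon 3 the same recombinase removes, so that a stabilised β-catenin is made. The DoubleTg tissue was labelled prostatic adenocarcinoma and the TripleTg tissue prostatic carcinoma. PB-Cre4 is driven by a probasin promoter, which is active in prostate epithelium, so in cells where the promoter was not active the L(Ex3) allele keeps exon 3. Whether a low-Wnt cell had lost exon 3 was not tested, since 3′ counts per gene do not show it. The labels give neither the age of the mice nor how many were pooled. With 1 library per genotype there was no test, and the intervals below are exact 95% intervals that cover counting error only.

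In the canonical Wnt pathway, β-catenin that escapes degradation enters the nucleus, binds TCF and LEF factors and switches on target genes. Several of these targets feed back on the pathway. AXIN2 belongs to the complex that degrades β-catenin, NKD1 is an inhibitor inside the cell, NOTUM removes a lipid from Wnt ligands, APCDD1 is an inhibitor at the membrane, LGR5 is a receptor that strengthens the signal, and LEF1 is one of the factors that β-catenin binds. In prostate epithelium, loss of exon 3 of Ctnnb1 is known to drive hyperplasia with squamous and hair-like features.

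By depth the low-Wnt cells were somewhat shallower than the high-Wnt cells, with a median of 23106 UMIs (10037 to 106196) and 3923 genes against 26802.5 UMIs (10025 to 130196) and 4302 genes. Their summed depth was 19193534 UMIs against 135004066. The median share of mitochondrial UMIs was 3.23% against 3.48%. Cells with over 6000 genes, which can hold doublets, made up 3.66% of low-Wnt and 12.7% of high-Wnt cells.

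The label luminal was first checked against its markers. Krt8 and Krt18, the keratin pair of simple epithelium, stood in low-Wnt cells at 5352 and 4638 UMIs per 1000000 UMIs of the group (CPM), against 5086 and 4833 CPM in high-Wnt cells and 262 and 221 CPM in 66 immune cells of the same library (at least 3 Ptprc UMIs, no Epcam). Per cell the median of Krt8 was 53.1 UMIs per 10000 in low-Wnt cells, 48.2 in high-Wnt cells and 2.35 in the immune cells. Krt19 stood at 3970 against 3591 CPM. The 12 luminal markers summed to a median of 187 per 10000 UMIs per low-Wnt cell and 174 per high-Wnt cell. Only 11 of these markers reached 5 CPM, none of them differed 2-fold, and their median log2 ratio, low-Wnt over high-Wnt, was 0.07. The markers fit the label for most of the low-Wnt cells, but the lowest cell had a luminal sum of 2.96 per 10000.

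Not every gated cell was epithelial by its leading genes. When the 4917 cells were clustered without the 6 rule genes, 3 of 20 clusters were led by markers of non-epithelial cell types. Cluster 15, with fibroblast and smooth muscle markers such as Col3a1 and Rgs5, held 51 low-Wnt cells among 131. Cluster 19, with endothelial markers such as Kdr, held 18 of 48, and its Epcam stood at 178 CPM. Cluster 20, with macrophage and dendritic markers such as C1qa, held 15 of 27, with Krt8 at 4907 CPM. Together these clusters held 84 low-Wnt cells (11.4%, 9.19 to 13.9) and 122 high-Wnt cells (2.92%, 2.43 to 3.47). Without them 653 of 4711 cells (13.9%, 12.9 to 14.9) were low-Wnt. The summed fibroblast markers, 902 CPM in low-Wnt and 253 CPM in high-Wnt cells, became 98.2 and 169 CPM without those clusters, and smooth muscle markers went from 99.1 and 14.8 to 3.36 and 2.91 CPM. Endothelial markers went from 85.5 and 29.4 to 6.60 and 7.98 CPM, and macrophage and dendritic markers from 286 and 74.1 to 54.3 and 61.4 CPM. Lymphocyte markers summed to 2.76 and 3.10 CPM in all gated cells.

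Another cluster, number 9, was epithelial but held basal markers, although the gate limits Krt5, Krt14 and Krt15. Of its 8 basal markers 7 were at least 2-fold higher than in the other gated cells, and they summed to 1735 CPM, while its Krt8 stood at 2450 CPM. It held 56 low-Wnt cells (7.60%, 5.79 to 9.75) and 164 high-Wnt cells (3.92%, 3.36 to 4.56), so its genes weigh more in the low-Wnt sum. Without cluster 9 and the 3 non-epithelial clusters 597 of 4491 cells (13.3%, 12.3 to 14.3) were low-Wnt. Values without the 3 clusters, and without cluster 9 as well, stand beside those for all gated cells where a result rests on them.

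The 6 rule genes chose the cells, so their levels are a description. They summed to 19.5 CPM (17.6 to 21.6) in low-Wnt and 243 CPM (241 to 246) in high-Wnt cells. In the immune cells they summed to 17.6 CPM (10.6 to 27.5), and in 4784 DoubleTg cells that passed the same gates to 4.99 CPM (4.68 to 5.31). The low-Wnt cells as a sum thus lay within the interval of the immune cells and above DoubleTg. By gene, low-Wnt against high-Wnt cells had Axin2 at 7.97 against 93.3 CPM, Nkd1 at 5.26 against 73.4, Notum at 3.07 against 39.5, Lgr5 at 0.781 against 16.5, Apcdd1 at 1.46 against 11.3 and Lef1 at 0.990 against 9.24. Of the 737 cells, 429 had no rule UMI at all, at a median depth of 17709 UMIs, 257 had 1 UMI, 39 had 2, and the rest had 3 to 5 at depths of 61596 to 106196 UMIs. Across all high-Wnt cells the rule sum had a median of 1.95 per 10000, with quartiles of 1.22 and 3.17 and a maximum of 26.4.

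**Figure D1:**
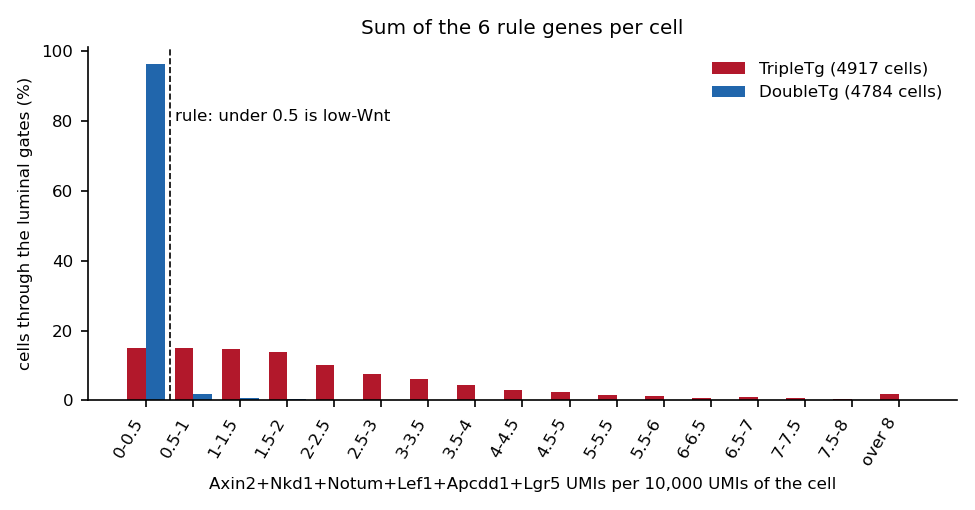
Share of cells (%, vertical axis) by the sum of the 6 rule genes per 10,000 UMIs of the cell (horizontal axis, steps of 0.5) in 4917 TripleTg and 4784 DoubleTg cells that passed the luminal gates; the dashed line is the rule. In DoubleTg 96.4% of cells lay under 0.5, while the TripleTg cells spread from 14.99% under 0.5 to a maximum of 26.4, with no gap at the rule.

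The rule cuts a continuous range. Just inside it, 129 cells with 0.4 to 0.5 per 10000 had Wif1 at 68.9 CPM, Dkk2 at 51.5 CPM and Krt8 at 5583 CPM. Just outside it, 143 cells with 0.5 to 0.6 had Wif1 at 46.1, Dkk2 at 55.5 and Krt8 at 5916 CPM. Depth also enters the rule. When each cell was thinned to 10000 UMIs, 1185 TripleTg cells (24.1%, 22.9 to 25.3) had 0 rule UMIs, among them 632 of the 737 low-Wnt cells (85.8%) and 553 of the 4180 high-Wnt cells (13.2%). In DoubleTg the share at 0 was 95.7% (95.1 to 96.3). Low-Wnt cells were thus the lower end of a range, with no gap between the groups.

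Splitting the rule gave readouts that did not choose the cells. When only Axin2, Nkd1 and Notum chose them, at less than 0.25 per 10000, the 584 low cells had Lef1, Apcdd1 and Lgr5 at a sum of 14.2 CPM against 34.6 CPM in 4333 others, a log2 ratio of −1.28 (−1.496 to −1.07). Apcdd1 stood at −1.66, Lgr5 at −1.41 and Lef1 at −0.74. In the reverse direction, 2805 cells low in Lef1, Apcdd1 and Lgr5 had Axin2, Nkd1 and Notum at 141 against 233 CPM, a ratio of −0.73 (−0.76 to −0.69). Each set of 3 rule genes was lower in the cells that the other set chose.

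Across all genes that reached 5 CPM in low-Wnt or high-Wnt cells, with the rule genes left out, 465 of 8909 (5.22%) were at least 2-fold higher in low-Wnt cells and 37 (0.415%) at least 2-fold lower. Without the 3 clusters led by non-epithelial cell types, 161 of 8556 genes (1.88%) were 2-fold higher and 42 (0.491%) 2-fold lower, and without cluster 9 as well 132 of 8486 (1.56%) and 44 (0.519%). Of the 37 lower genes 34 kept a 2-fold difference without the 3 clusters, and of the 465 higher genes 144 did and still reached 5 CPM there. A counting interval off 0 was common at this depth, with 28.0% of the 8909 genes below 0 and 27.1% above 0 beyond it, 30.4% and 21.0% without the 3 clusters, and 30.6% and 19.3% without cluster 9 as well. The median ratio of all genes was −0.02, or −0.04 without those clusters.

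Wnt target genes outside the rule were mostly lower in low-Wnt cells, though by less than 2-fold for all but 3. Of 25 listed targets 17 reached 5 CPM, 11 lay below 0 beyond their counting interval, against 28.0% of all genes, 2 lay above it, against 27.1%, and 4 spanned 0, with a median of −0.17. The 3 that were 2-fold lower, against 0.415% of all genes, encode secreted or membrane regulators of the pathway, and none was 2-fold higher. Without the 3 clusters the median was −0.33, with 11 of 16 below 0, against 30.4% of all genes, and 4 of them 2-fold lower, and without cluster 9 as well it was −0.30, with 12 of 16 below 0, against 30.6%.

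Wif1, a secreted protein that binds Wnt ligands (ENSMUSG00000020218, chromosome 10, 121033960 to 121100650 of GRCm38, plus strand), stood at 57.0 CPM in low-Wnt and 165 CPM in high-Wnt cells, a log2 ratio of −1.54 (−1.63 to −1.45). It stood at 11.7 CPM in DoubleTg and 10.2 CPM in the immune cells. Low-Wnt cells thus lay between high-Wnt and DoubleTg cells. Dkk2, a secreted ligand of the LRP co-receptors (chromosome 3, 132085292 to 132180304, plus strand), stood at 47.9 against 105 CPM, a ratio of −1.13 (−1.23 to −1.04), with 2.73 CPM in DoubleTg. Znrf3, an E3 ligase that removes Frizzled receptors (chromosome 11, 5276324 to 5444847, minus strand), stood at 12.2 against 28.4 CPM, a ratio of −1.22 (−1.41 to −1.03), with 5.14 CPM in DoubleTg. Its relative Rnf43 stood at 15.5 against 28.8 CPM (−0.89, −1.06 to −0.72). These 4 genes, each an antagonist or modulator of the pathway, kept their sign in all 13 alternative settings. The size depended on the setting, since with every cell thinned to 10000 UMIs and cells with 0 rule UMIs set against the others, Dkk2 had −0.54, Znrf3 −0.82 and Rnf43 −0.76, under 2-fold, and Wif1 −1.48.

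Tcf7, which encodes one of the TCF factors, stood at 19.3 against 31.8 CPM, a log2 ratio of −0.72 (−0.88 to −0.57). Tcf4, which encodes E2-2 and not the factor of Tcf7l2, had a ratio of −0.64 (−0.72 to −0.56) from 66.1 and 103 CPM. Immune cells held Tcf4 at 125 CPM, and without the 3 clusters its ratio was −1.06 (−1.17 to −0.96). Tnfrsf19, a receptor of the TNF family, had −0.53 (−0.68 to −0.38). Several listed targets were close to 0. Myc had −0.06 (−0.16 to 0.03), Ccnd1 0.01 (−0.09 to 0.10), Sox9 −0.09 (−0.12 to −0.05), Cd44 −0.17 (−0.21 to −0.14) and Mmp7 −0.17 (−0.18 to −0.15). Dkk3 was above 0 at 0.33 (0.05 to 0.60) in all gated cells, with 69.5% of its low-Wnt UMIs in cluster 15, and at −1.09 (−1.60 to −0.61) without the 3 clusters. Ephb3, a receptor of ephrin ligands, was also above 0, at 0.14 (0.02 to 0.26). Its relative Ephb2 lay under 5 CPM in both groups, at 4.01 against 1.60 CPM (1.33, 0.93 to 1.71), with 48.1% of its 77 low-Wnt UMIs from cluster 17 and 0.67 without it.

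By single cell, thinned to 10000 UMIs, Wif1 was detected in 24.4% (21.4 to 27.7) of low-Wnt and 48.2% (46.7 to 49.7) of high-Wnt cells, and before thinning in 36.9% and 64.8%. In the immune cells, at a median depth of 15337.5 UMIs, the share was 9.09% after and 15.2% before thinning. Dkk2 was detected in 29.2% against 50.05% after thinning, and in 42.7% against 73.1% before, with 6.06% and 9.09% of immune cells. Znrf3 was detected in 11.5% against 24.3% after thinning, and in 24.8% against 51.2% before. Its thinned share in low-Wnt cells (9.32 to 14.1) overlapped that in immune cells (7.58%, 2.51 to 16.8), so part of it cannot be told apart from free RNA. The highest low-Wnt cell had 11.6 Wif1 UMIs per 10000 and the highest high-Wnt cell 95.7, and the ranges of the groups overlapped for each of these genes.

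At equal depth the same genes followed the number of rule UMIs step by step. Over the 4711 cells outside the 3 clusters, thinned to 10000 UMIs, Wif1 stood at 70.4 CPM in 1084 cells with 0 rule UMIs, 96.4 with 1, 138 with 2, 161 with 3 to 4, 312 with 5 to 8 and 822 in 125 cells with 9 or more. Wnt6, a Wnt ligand, stood at 16.2, 25.5, 33.2, 44.1, 88.1 and 226 CPM over the same steps. Dkk2 had a narrower range, from 72.1 to 152 CPM. Ctnnb1 itself lay between 223 and 261 CPM over the first 5 steps and at 430 CPM in the last. Clu, which encodes the secreted chaperone clusterin, went the other way, from 6714 through 4885 at 2 rule UMIs to 1564 CPM. Ly6d, a surface protein of progenitor-like luminal cells, went from 6585 to 2215 CPM, and Wfdc2, a secreted protease inhibitor, from 330 to 47.2 CPM. Krt8 went from 5719 to 2247 CPM, whereas Epcam had 1837 CPM in the lowest step and 1484 CPM in the highest. How far the last step drew on single clusters was not tested. Cluster 16, led by hair and epidermal genes, had 108 cells, a median rule sum of 7.62 per 10000 and Krt8 at 1173 CPM.

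**Figure D2:**
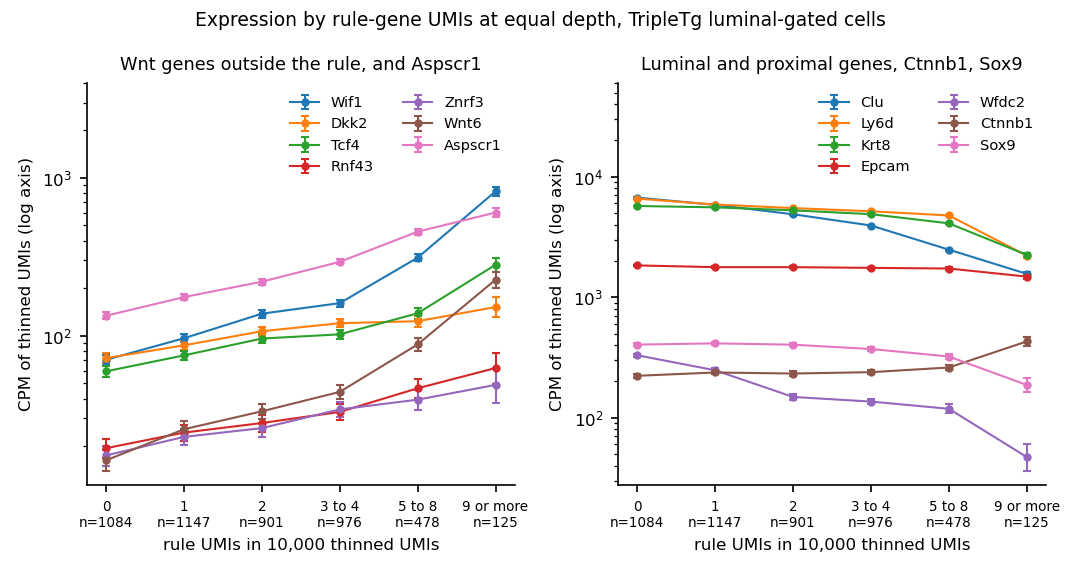
Level of named genes (CPM of thinned UMIs, log axis) by the number of rule UMIs among 10,000 UMIs of a cell (horizontal axis, n cells under each step) in TripleTg luminal-gated cells outside the 3 clusters led by non-epithelial cell types; bars are exact 95% counting intervals. Wif1 goes from 70.4 to 822 CPM on the left, and Clu from 6714 to 1564 CPM on the right.

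The lower Wnt targets were not a matter of a single cluster. Of the clusters with at least 20 low-Wnt and 20 high-Wnt cells, 12 were not led by a non-epithelial type, and cluster 9 was among them. Wif1 was lower in the low-Wnt cells in 12 of these 12, with a median log2 ratio of −1.21 (−2.04 to −0.28 across clusters) and 11 counting intervals below 0. Dkk2 was lower in 12 of 12 (median −1.28), Tcf4 in 12 (−0.80), Znrf3 in 11 (−0.94), Wnt6 in 11 (−1.26) and Rnf43 in 10 (−0.72). Tcf7 was lower in 12 but with only 4 intervals below 0 (median −0.41). Ctnnb1 was lower in 8 and higher in 4, with a median of −0.11. Without cluster 9 Wif1 and Dkk2 were lower in 11 of 11, with medians of −1.18 and −1.20. Clusters are groups of cells of 1 library and not replicates.

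Among components of the pathway the ligands Wnt6 and Wnt10a had the lowest ratios. Of 29 listed genes 26 reached 5 CPM, 2 were 2-fold lower, against 0.415% of all genes, none was 2-fold higher, against 5.22%, and the median was −0.08. Wnt6 (chromosome 1, 74771892 to 74785322, plus strand) stood at 11.7 against 41.3 CPM, a log2 ratio of −1.82 (−2.02 to −1.63), and at 0.290 CPM in DoubleTg. Wnt10a stood at 1.35 against 6.45 CPM (−2.25, −2.87 to −1.69) and reached 5 CPM only through the high-Wnt cells. Another ligand, Wnt5a, which mostly signals without β-catenin, had a ratio of −0.27 (−0.39 to −0.16) from 33.2 and 40.1 CPM. The mRNA of the stabilised factor itself, Ctnnb1, was nearly level at 232 against 245 CPM (−0.08, −0.13 to −0.03). Bcl9, a coactivator of β-catenin, stood at 26.3 against 44.4 CPM (−0.76, −0.89 to −0.63), and its relative Bcl9l had −0.53. Apc, a part of the destruction complex, had −0.26. Porcn, the enzyme that puts a lipid on Wnt ligands, was the highest of the list at 0.88 (0.56 to 1.20), from 105 UMIs in low-Wnt cells. Porcn lay under 5 CPM in both groups without the 3 clusters, at a ratio of 0.74 (0.38 to 1.08). Bmp2, a ligand of another pathway, stood at 70.5 against 124.5 CPM (−0.82, −0.90 to −0.74).

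The low-Wnt UMIs of the 15 lowest genes of at least 50 CPM, rule and gate genes left out, came from several clusters. The largest share from 1 cluster ran from 12.7% to 46.3%, the latter for Coch in cluster 5. The clusters of their high-Wnt UMIs were not examined in the same way. For Coch 7469 and 4842 of the 16005 high-Wnt UMIs lay in clusters 3 and 5. The lowest was Ptn, which encodes the growth factor pleiotrophin (chromosome 6, 36714929 to 36810220, minus strand), at 9.53 against 63.4 CPM, a log2 ratio of −2.73 (−2.95 to −2.52). Of its low-Wnt UMIs 56.8% lay in the 3 clusters, and without them it stood at 4.49 against 60.4 CPM (−3.75, −4.09 to −3.43). After thinning Ptn was detected in only 3.12% of low-Wnt and 8.40% of high-Wnt cells. Within clusters 6 of 12 intervals lay below 0 and 0 above. Wif1 came next, then Coch, an extracellular matrix protein, at 51.2 against 119 CPM (−1.21, −1.31 to −1.12) but at −0.30 after thinning, Dkk2, and Aspscr1 at 116 against 255 CPM (−1.13, −1.19 to −1.07). Aspscr1, which encodes the tether TUG of the glucose transporter GLUT4, lies on chromosome 11 at 120672973 to 120709447, plus strand. It is the next gene model to the rule gene Notum (120653788 to 120661175, minus strand), with 11798 bases between their spans and 0 other genes wholly in between. Aspscr1 was lower in low-Wnt cells in 11 of 12 clusters, and at equal depth it went from 134 to 604 CPM over the steps of rule UMIs. Tnfrsf11b, which encodes osteoprotegerin, stood at 117 against 234 CPM (−1.01, −1.07 to −0.94) and at 1.84 CPM in DoubleTg. The others, at −1.05 to −0.84, were Gm26917, Sftpc, Slc30a2, Cadps, Rnf149, Gpc1, Lap3, Apoc4 and Pde4dip. Cadps, a factor of vesicle release, and Rnf149, an E3 ligase, were lower in 12 of 12 clusters. All 15 except Sftpc kept their sign in the 13 settings, while Sftpc, a surfactant protein gene, kept it in 11. The settings and the clusters use the same cells that ranked these genes, so a kept sign is not separate support. Some, such as Slc30a2 at 32.4 against 60.4 CPM, reached 50 CPM only through the high-Wnt cells.

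The 15 highest genes each drew most of their low-Wnt UMIs from 1 cluster, from 66.8% to 99.5%. Ccl21a, a chemokine of lymphatic vessels, had a log2 ratio of 6.60, with 98.9% of its 1575 low-Wnt UMIs in the endothelial-marker cluster and 65.1% in 1 cell. Without the 3 clusters it stood at 0.08 (−0.78 to 0.84). Col3a1, a fibroblast collagen, had 3.37, with 98.1% from cluster 15, and −0.08 (−0.44 to 0.26) without. Spp1, Mfap5, Ccl2, Col1a2, Fbln1, Rgs5, Lum, Serping1 and Fstl1, at 2.69 to 4.07, likewise drew over 79% of their UMIs from cluster 15. In all, 11 of the 15 highest genes had over 50% of their UMIs in the clusters led by non-epithelial cell types, and 4 were 2-fold higher without them. Leaving out the 3 clusters also turned the direction of Ccl2, to −0.41, and of Rgs5, to −0.21.

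The 4 that remained 2-fold higher were Reg3b, Reg1, Reg3g and Psca. The first 3 encode secreted lectins of the regenerating family and lie together on chromosome 6, at 78370657 to 78373466 (Reg3b), 78422711 to 78428667 (Reg1) and 78466269 to 78468872 (Reg3g). Reg3b stood at 139 against 7.47 CPM, a log2 ratio of 4.22 (4.12 to 4.33), and 99.5% of its low-Wnt UMIs lay in cluster 17. Reg1 stood at 72.2 against 4.13 CPM (4.13) with 98.1% from cluster 17, and Reg3g at 63.8 against 5.37 CPM (3.57) with 97.1%. Psca, which encodes prostate stem cell antigen (chromosome 15, 74714839 to 74717069, plus strand), stood at 219 against 34.3 CPM (2.68, 2.62 to 2.74). Of its low-Wnt UMIs 66.8% lay in cluster 9 and 49.2% in 1 cell, and without that cell the ratio was 1.70. Without cluster 9 and the 3 clusters it stood at 85.9 against 24.3 CPM (1.82, 1.73 to 1.91). After thinning Psca was detected in 13.0% (10.7 to 15.7) of low-Wnt and 7.61% (6.82 to 8.45) of high-Wnt cells, and before thinning in 18.7% and 14.98%, and in none of the 66 immune cells. Within clusters its CPM was higher in 7 and lower in 5 of 12, with 3 intervals above and 1 below 0.

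**Figure D3:**
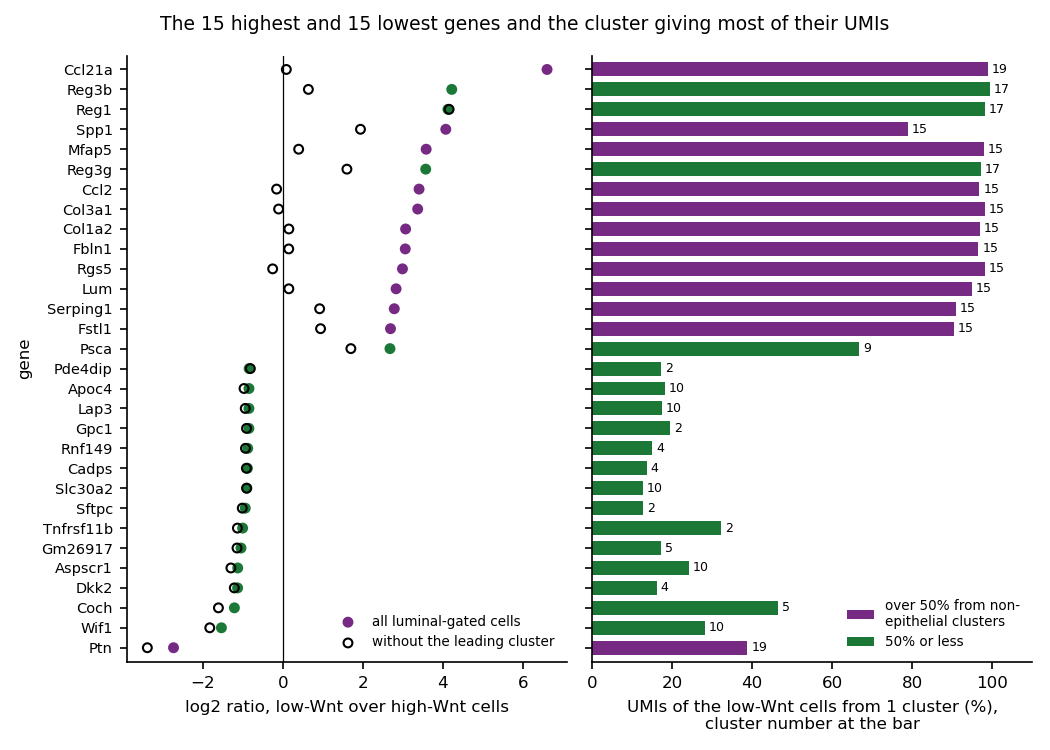
Left, log2 ratio of low-Wnt over high-Wnt cells for the 15 highest and 15 lowest genes of at least 50 CPM, for all gated cells (filled) and without the cluster that gave most of the low-Wnt UMIs (open). Right, the percentage of the low-Wnt UMIs of each gene that came from that cluster, with its number; purple marks genes with over 50% of UMIs from clusters led by non-epithelial cell types. Most of the highest genes lose their ratio without 1 cluster, as Col3a1 with 98.1% of UMIs from cluster 15. For the lowest genes the cluster was also chosen by low-Wnt UMIs. Their open points therefore do not show whether their high-Wnt UMIs came from 1 cluster.

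The low-Wnt cells were unevenly spread over the clusters, which is a description, since both came from the same counts. Cluster 17, led by Reg1, Reg3b, Reg3g and Dmbt1, held 46 low-Wnt cells of 73 (63.0%, 50.9 to 74.0). Cluster 13, led by Pbsn, Gm5615 and Tgm4, had 44 of 132 (33.3%), cluster 10, led by Krt73, Tchh and Crct1, 55 of 214 (25.7%) and cluster 9, with basal markers and led by Vsig2, Uchl1 and Aqp3, 56 of 220 (25.5%). The largest number, 97 of 561 (17.3%), lay in cluster 2, which had Ltf among its leading genes. The lowest shares were in cluster 12, led by Krt36 and Defa5 (3 of 145, 2.07%), cluster 14, led by Ly6k and Wnt6 (3 of 131, 2.29%), and cluster 16, led by the hair and epidermal genes Krtap13-1 and Krt1 (4 of 108, 3.70%). Clusters 11 and 8, led by the mitotic genes Nusap1 and Birc5, had 7.43% and 9.28%. Clusters 14 and 16 also had high rule sums, with medians of 3.26 and 7.62 per 10000, against 0.251 in cluster 17.

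**Figure D4:**
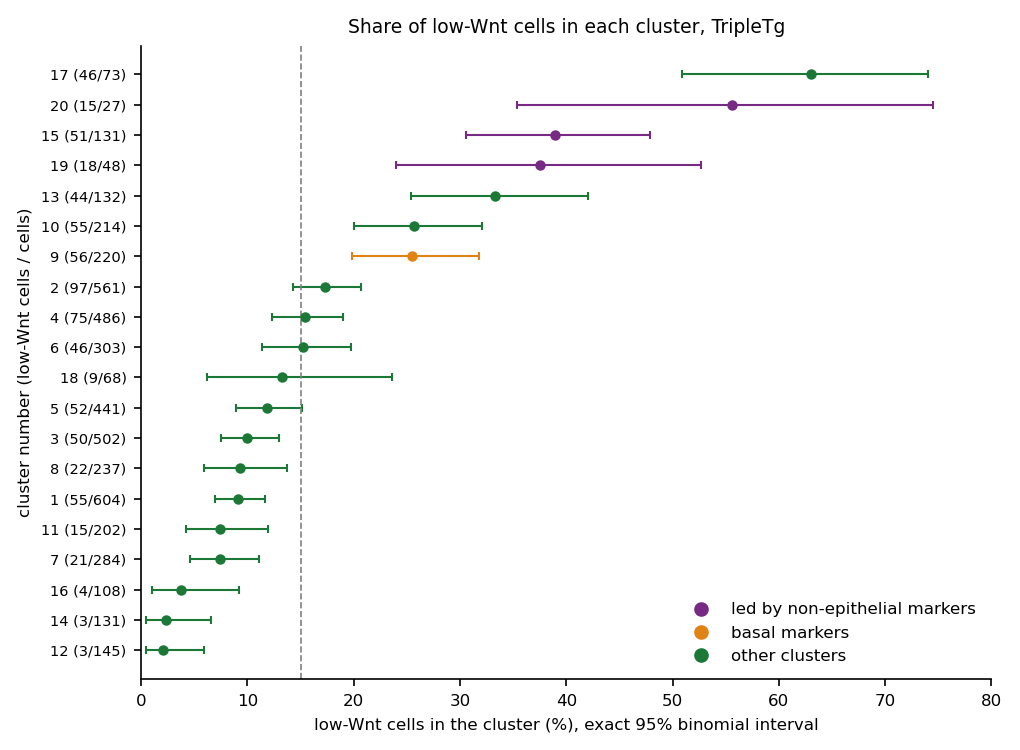
Percentage of cells that were low-Wnt (horizontal axis, points, with exact 95% binomial intervals as bars) in each of 20 clusters of the 4917 TripleTg gated cells, given by number, with low-Wnt cells over all cells in parentheses. The dashed line marks 14.99%; shares run from 2.07% in cluster 12 to 63.0% in cluster 17, and purple clusters were led by markers of non-epithelial cell types and the orange cluster 9 held basal markers.

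Inside these clusters the leading genes of the low-Wnt cells were mostly also detected in the high-Wnt cells, at levels that differed by gene. In cluster 17 the low-Wnt cells had Reg3b at 1901 CPM and the high-Wnt cells at 1045 CPM, and Lgals4, a lectin of gut epithelium, at 552 against 171 CPM. In cluster 10 Tchh, which encodes trichohyalin of the hair follicle, stood at 1508 against 2444 CPM, and Cnfn, a protein of the cornified envelope, at 1903 against 1165 CPM. In cluster 9 Aqp3, a water and glycerol channel, stood at 801 against 522 CPM, and in cluster 13 Tgm4, the prostate transglutaminase, at 1079 against 1515 CPM. Some leading genes rested on 1 cell. Tff3, a trefoil peptide of mucus, stood at 483 CPM in the low-Wnt cells of cluster 17 with 100% of its UMIs in 1 cell, and Tff1 at 55.2 CPM in those of cluster 9 with 94.7% in 1 cell.

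Genes of proximal luminal cells, the progenitor-rich cells near the urethra, were higher in low-Wnt cells as a list. All 13 listed genes lay above 0 beyond their counting interval, against 27.1% of all genes, 3 were 2-fold higher, against 5.22% of all genes, and the median log2 ratio was 0.62, or 0.70 without the 3 clusters and 0.74 without cluster 9 as well, with 3 of 13 genes 2-fold higher, against 1.56% of all genes there. Clu stood at 7070 against 4534 CPM (0.64, 0.63 to 0.65), and at 21900 CPM in DoubleTg. Krt7, a simple keratin, stood at 577 against 319 CPM (0.86, 0.83 to 0.89), and Ly6a, which encodes Sca-1, at 1382 against 930 CPM (0.57, 0.55 to 0.59). Ly6d stood at 7099 against 5477 CPM (0.37), while DoubleTg had 139 CPM. Clu, Ly6d and Krt7 were each higher in 10 of 12 clusters, with medians of 0.51, 0.28 and 0.53. The 3 genes past 2-fold were Psca, Wfdc2 at 419 against 168 CPM (1.32, 1.28 to 1.35) and Cyp2f2, a cytochrome P450, at 11.0 against 2.04 CPM (2.43), which reached 5 CPM only through the low-Wnt cells. Cluster 17 gave 38.9% of the low-Wnt UMIs of Wfdc2 and 87.7% of those of Cyp2f2, and without it they had ratios of 0.84 and 0.33. Krt4 had 0.83 in all gated cells and was at −0.03 in the lowest of the settings.

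Mucosal and urethral genes had a median of 0.88, with 5 of 11 tested genes 2-fold higher, against 5.22% of all genes, and none lower. Without the 3 clusters the median was 1.06 with 6 of 12 (all genes 1.88%), and without cluster 9 as well 0.77 with 4 of 11 (all genes 1.56%). Gsta4, a glutathione transferase, stood at 148 against 60.1 CPM (1.30) with 71.4% of UMIs from the basal-marker cluster 9 and a ratio of 0.47 without it. Aqp3 stood at 63.5 against 29.7 CPM (1.10) with 89.3% from cluster 9, and without that cluster at −0.31. Ltf, which encodes lactoferrin, stood at 788 against 492 CPM (0.68, 0.65 to 0.71), with 44.3% from cluster 2 and a ratio of 0.72 without it. Upk1a, a urothelial plaque protein, had 1.40 and 1.06 without its leading cluster. Squamous genes had a median of 0.83 with 5 of 12 genes 2-fold higher, against 5.22% of all genes, and of 0.88 with 4 of 11 without cluster 9 and the 3 clusters, against 1.56%. These included genes that reached 5 CPM only through the low-Wnt cells. Krt1, at 7.07, came 97.8% from 1 cell, and Krtdap, at 4.06, 90.4% from 1 cell, and without that cell they stood at 1.55 and 0.67. Ivl, which encodes involucrin, stood at 207 against 88.05 CPM (1.23), with 74.6% of its low-Wnt UMIs from cluster 9 and a ratio of 0.47 without it. Basal markers had a median of 0.32, and their sum was 513 against 540 CPM. Without cluster 9 and the 3 clusters these were −0.14, and 449 against 491 CPM.

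**Figure D5:**
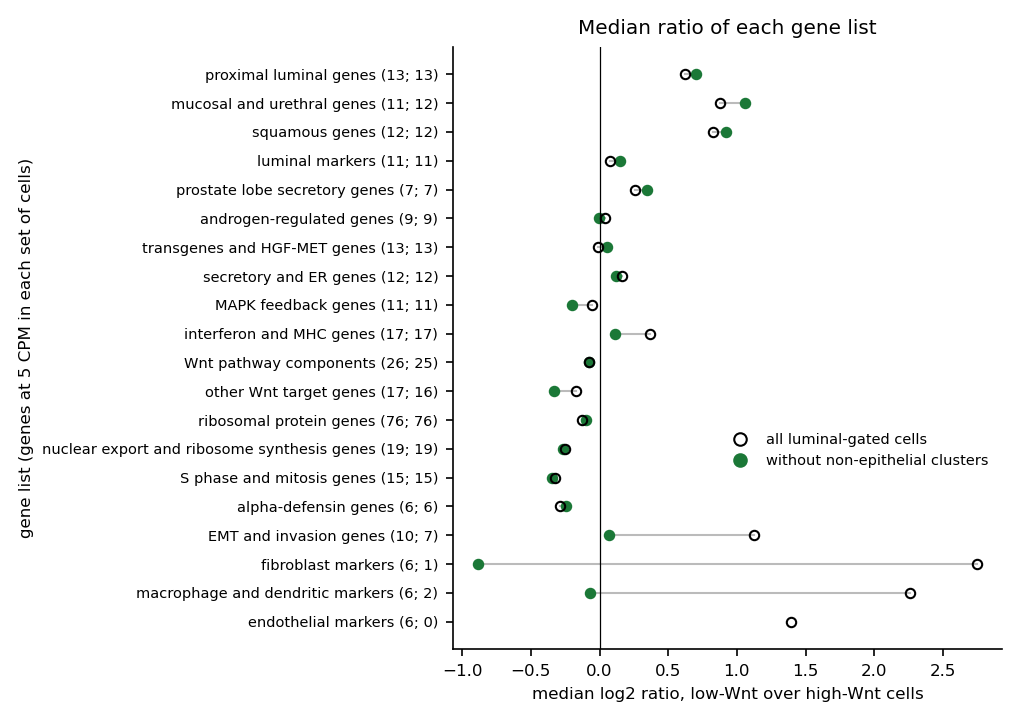
Median log2 ratio of low-Wnt over high-Wnt cells (horizontal axis) for 20 gene lists, in all luminal-gated cells (open) and without the clusters led by non-epithelial cell types (green); the number of genes with at least 5 CPM in each set stands beside each list. Proximal luminal genes have medians of 0.62 and 0.70 and other Wnt target genes −0.17 and −0.33, while fibroblast markers move from 2.75 to −0.89 with 1 gene left.

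Low-Wnt cells did not have the secretory output of DoubleTg luminal cells. Secretory genes of the prostate lobes summed to 703 CPM in low-Wnt and 384 CPM in high-Wnt cells, against 104376 CPM in DoubleTg. Sbp, which encodes spermine-binding protein, had 0 of 19193534 UMIs in low-Wnt cells, which allows up to 0.156 CPM, against 60793 CPM in DoubleTg, at least 388945-fold lower. Msmb had 0 UMIs as well, against 5174 CPM in DoubleTg. Spink1, a protease inhibitor, stood at 3.49 CPM in low-Wnt and 3.56 CPM in high-Wnt cells, below the 13.0 CPM of the immune cells, and at 18470 CPM in DoubleTg. Defb50, a β-defensin of the prostate, stood at 45.3 and 62.8 CPM against 12560. Pbsn, which encodes probasin (chromosome X, 77837901 to 77853623, minus strand), had 9 UMIs, or 0.469 CPM, in low-Wnt cells, 5.99 CPM in high-Wnt cells and 1583 CPM in DoubleTg, and the ratio of low-Wnt over high-Wnt was −3.67 (−4.81 to −2.74). The high-Wnt level rested on few cells, since 658 of the 808 high-Wnt UMIs lay in the 88 high-Wnt cells of cluster 13, and after thinning Pbsn was detected in 0.68% (0.22 to 1.58) of low-Wnt and 0.81% (0.56 to 1.13) of high-Wnt cells. It reached 5 CPM only through the high-Wnt cells. Of 7 secretory genes tested 2 were 2-fold higher in low-Wnt cells, against 5.22% of all genes. Pate4 (2.08) had 82.2% of its UMIs in cluster 17 and a ratio of −0.69 weighted over 13 clusters, the non-epithelial cluster 15 among them. Crym (1.06) had 86.5% in cluster 10 and −0.66 without it.

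Androgen-regulated genes were close to level between low-Wnt and high-Wnt cells. Of 19 listed genes 9 reached 5 CPM, 3 lay above 0 and 4 below, against 27.1% and 28.0% of all genes, only Pbsn differed 2-fold, and the median was 0.04, or −0.00 without the 3 clusters. They summed to 603 and 621 CPM, against 86766 CPM in DoubleTg. Tmprss2, an androgen-responsive protease, stood at 80.8 against 91.4 CPM (−0.18, −0.26 to −0.10), with 59.9 CPM in DoubleTg. Fkbp5, a cochaperone of steroid receptors, stood at 2.97 and 2.36 CPM, with 54.1 CPM in DoubleTg and 8.35 CPM in the immune cells. Ratios of each TripleTg group to DoubleTg share the DoubleTg library.

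Of the transgenes hMETtg was level between the summed groups, and hHGFtg was higher in the low-Wnt sum. hMETtg stood at 27.3 CPM in low-Wnt and 26.8 CPM in high-Wnt cells (0.02, −0.11 to 0.16), against 494 CPM in DoubleTg and 0.928 CPM in the immune cells. After thinning it was detected in 19.0% (16.2 to 22.0) of low-Wnt and 18.1% (17.0 to 19.3) of high-Wnt cells, and before thinning in 31.2% and 36.4%, against 1 of 66 immune cells. Within clusters hMETtg was lower in 8 and higher in 4 of 12, with 1 interval below 0 and none above. Its ratio weighted over 13 clusters, these and the non-epithelial cluster 15, was −0.29. Mouse Met, the counterpart of hMETtg, stood at 60.2 and 60.5 CPM (−0.01, −0.10 to 0.08), and in 12 clusters it was lower in 7 and higher in 5 with no interval off 0. Reads that Met and hMETtg could share were not separated here. hHGFtg stood at 72.0 against 41.6 CPM (0.79, 0.71 to 0.88), with 64.3% of low-Wnt UMIs from cluster 9 and 0.13 without it. Without the 3 clusters it stood at 75.3 against 36.8 CPM (1.03, 0.94 to 1.12), and without cluster 9 as well at 26.9 against 19.99 CPM (0.43, 0.28 to 0.57). Within clusters hHGFtg was lower in 6 and higher in 6 of 12, and its ratio weighted over the 13 clusters was −0.22. Mouse Hgf stood at 16.7 against 9.04 CPM (0.89), with 48.9% from cluster 9, and had 1.11 without the 3 clusters and 0.88 without cluster 9 as well. Of the 13 transgenes and HGF-MET genes none was 2-fold higher in all gated cells, these 2 were without the 3 clusters, against 1.88% of all genes, and none was without cluster 9 as well. Of 11 MAPK feedback genes tested 5 lay below 0, against 28.0% of all genes, and 2 above, against 27.1%, with a median of −0.05. Without the 3 clusters 6 lay below 0, against 30.4%, with a median of −0.20. Spry1, an inhibitor of receptor tyrosine kinase signalling, was the lowest at −0.64 (−0.84 to −0.45).

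Proliferation and ribosome genes were lower by small amounts. Of 15 S phase and mitosis genes 11 lay below 0 beyond their interval, against 28.0% of all genes, and none above, with a median of −0.32. Mki67, a marker of cycling cells, stood at 8.86 against 13.6 CPM (−0.62, −0.86 to −0.40). Cdc20, an activator of the anaphase-promoting complex, had the lowest ratio of the list, at 2.92 against 5.47 CPM (−0.91), and reached 5 CPM only through the high-Wnt cells. Cycling cells, with UMIs of at least 3 of these genes after thinning, made up 57 of 737 low-Wnt cells (7.73%, 5.91 to 9.90) and 483 of 4180 high-Wnt cells (11.6%, 10.6 to 12.6). Of 19 nuclear export and ribosome synthesis genes 17 lay below 0, against the same 28.0%, with a median of −0.25. Nolc1, a nucleolar phosphoprotein, had −0.53, Ncl, which encodes nucleolin, −0.30 and Npm1, which encodes nucleophosmin, −0.26. The nuclear export gene Xpo1 was detected at equal depth in 12.2% (9.94 to 14.8) of low-Wnt and 12.3% (11.4 to 13.4) of high-Wnt cells. Before thinning these shares were 24.2% and 30.9%. Of 76 ribosomal protein genes 73 lay below 0, again against 28.0%, with a median of −0.13 (−0.23 to 0.02 across genes), and none differed 2-fold. These genes are abundant, so that their counting intervals leave 0 at small ratios. For scale, the median of all genes was −0.02.

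Alpha-defensins, antimicrobial peptides of gut Paneth cells, were abundant in both groups. They summed to 2606 CPM in low-Wnt and 3269 CPM in high-Wnt cells, against 1.49 CPM in DoubleTg. Defa20 stood at 528 against 763 CPM (−0.53, −0.56 to −0.50) and Defa21 at 819 against 1026 CPM (−0.33), with 26.9 and 23.2 CPM in the immune cells. Of 6 alpha-defensins tested 5 lay below 0, against 28.0% of all genes, and Defa24, at 4.43 against 9.73 CPM (−1.14, −1.47 to −0.82), was the only one 2-fold lower, against 0.415% of all genes, and reached 5 CPM only through the high-Wnt cells. At equal depth, outside the 3 clusters, Defa20 went from 450 CPM at 0 rule UMIs to 5002 CPM at 9 or more. It stood at 6791 CPM in cluster 16, which also had a high rule sum. Within clusters Defa20 was lower in 7 and higher in 5 of 12. These genes are near copies of each other, so counts of single members are uncertain.

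Lists for immunity and tissue remodelling followed the 3 clusters. EMT and invasion genes had a median of 1.12 with 6 of 10 genes 2-fold higher, against 5.22% of all genes, and 0.07 with 0 of 7 without those clusters, against 1.88%. Inflammation and chemokine genes went from 0.30 to −0.02, and interferon and MHC genes from 0.37 to 0.11. Cxcl5, a neutrophil chemokine, kept 2.49 (2.40 to 2.59) without them, from 84.1 against 15.4 CPM in all gated cells, but 76.7% of its UMIs lay in cluster 17 and its ratio without that cluster was 0.98. Secretory and ER genes (0.16), hypoxia and glycolysis genes (0.06), lipid synthesis genes (0.08), Notch genes (0.16), immediate early and stress genes (0.02) and BMP and TGF-beta genes (−0.02) had medians within 0.2 of 0, and epithelial transcription factors had −0.17. BMP and TGF-beta genes had −0.26 without the 3 clusters, with 7 of 10 below 0 beyond their interval, against 30.4% of all genes, and 2 above. Seminal vesicle genes had 0.25, and Svs4, which was part of the gate, stood at 1067 CPM in low-Wnt cells, 720 CPM in high-Wnt cells and 1102 CPM in the immune cells. RNA quality genes, led by the nuclear RNA Malat1, had a median of −0.00, and neutrophil markers had 0.39 from 2 genes. Of the neuroendocrine markers only Ncam1 reached 5 CPM, at 7.19 against 1.24 CPM, and none did without the 3 clusters.

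In the RefSeq promoters of GRCm38.p6, 250 bases before to 50 after a gene start, the TCF/LEF letters CTTTGAT or CTTTGAA were found on either strand in 8.65% of 32851 promoters and in 0 of the 6 promoters listed for Axin2, Nkd1 and Lef1. This says only that these letters are not in those 300 bases.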

How the data were processed

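Prostate tissue of 1 DoubleTg and 1 TripleTg sample was measured by 10x Genomics single-cell RNA-seq. The deposited matrices hold raw UMI counts per gene and cell, made by the authors with Cell Ranger (6.0.2 in the submitters' processing notes, 6.1.1 in the DoubleTg header) on mm10 with the transgenes added. The study's limits (over 200 and under 7000 genes, under 15% mitochondrial UMIs) were applied to DoubleTg, and TripleTg already met them. No doublet caller was run, and cells with over 6000 genes were left out in an alternative. The libraries shared 30 barcodes, 2 of them low-Wnt cells.

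UMIs were summed over the cells of a group and divided by its total (CPM). Log2 ratios have conditional binomial intervals, sums exact Poisson and shares Clopper-Pearson intervals, all at 95% and for counting error only. Sums under 3 UMIs were set to 3, genes needed 5 CPM in either group, and called means 2-fold. Thinning to 10000 UMIs was without replacement. Clusters used scanpy 1.11.5 (2000 variable genes without the rule genes, 20 components, 15 neighbours, Leiden resolution 1) and are named by leading genes. A cluster was led by a non-epithelial cell type (fibroblast, smooth muscle, endothelial or leukocyte) when that type's markers of 5 CPM had a mean log2 ratio of at least 2 over the other cells and at least 3 were 2-fold higher, a rule set after the clusters were seen. The same rule applied to basal markers marked cluster 9, which was left out only in a further alternative. Other tools were Python 3.11.15, numpy 2.4.6, scipy 1.17.1, pandas 2.3.3 and matplotlib 3.10.9. The steps were tested on simulated data. Gene spans are from GENCODE mouse release 21 on GRCm38.

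Named genes are those of fixed lists, the 15 highest and 15 lowest ratios among genes of at least 50 CPM with rule and gate genes left out, and the 10 highest per cluster of low-Wnt cells. The members and the lists were chosen with earlier results of these data known. The study's integration, pseudotime and cell-level tests were not used here.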

Additional observations from a re-analysis of the deposited data

How the results depend on the processing

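The share of low-Wnt cells (14.99%) was 13.9% among cells with at least 20000 UMIs, 16.3% without cells with over 6000 genes, 13.9% with Krt8 and Krt18 at 10 or more per 10000, 13.9% without the clusters led by non-epithelial cell types, 13.3% without these and the basal-marker cluster 9, and 24.1% after thinning. The 465 genes 2-fold higher became 156 with the Krt8 and Krt18 gate, 161 without those clusters, 132 without cluster 9 as well and 167 at 20 CPM. The 37 genes 2-fold lower became 86 against high-Wnt cells of at least 2 rule UMIs per 10000 and 14 at 20 CPM. The median of the other Wnt targets (−0.17) was −0.29 with the Krt8 and Krt18 gate, −0.33 without those clusters, −0.30 without cluster 9 as well, −0.53 against cells of at least 2 per 10000 and −0.35 at 20 CPM. The androgen-regulated median (0.04) was −0.11 within clusters, weighted over 13 clusters with the non-epithelial cluster 15 among them, and its sign depends on the setting. Lef1, Apcdd1 and Lgr5 in cells chosen by the other rule genes (−1.28) were at −1.56 without those clusters, −1.65 without cluster 9 as well and −0.93 after thinning, and the reverse (−0.73) at −0.79 without cells with over 6000 genes, −0.69 with basal genes under 5 per 10000 and −0.69 with the Krt8 and Krt18 gate. The alternatives without those clusters and without cluster 9 were chosen after seeing the data. The cause of these shifts was not tested, except that a higher CPM minimum leaves fewer genes. No paired analysis was possible because there was 1 library per genotype, and no replicate could be left out. Depth limits the rule itself, since at 10000 UMIs 0.5 per 10000 is less than 1 UMI.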

Other observations

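In the low-Wnt cells of cluster 5, the 10 highest genes against the other low-Wnt cells each had 94.4% to 100% of their UMIs in 1 cell. They included genes of plasma proteins made by the liver, with 98.3% for Fgb, 96.7% for Fgg, 96.4% for Fga, 96.1% for Apob, 97.0% for Apoa1, 95.9% for Serpina1b, 97.3% for Kng1, 96.7% for Serpina1a and 94.4% for Igfbp1. These genes were found after the values were seen, by the fixed rule on the 10 highest genes per cluster.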
